A study of Mus musculus with 12 samples.

Results

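The comparison set the uterus in proestrus against the uterus in diestrus, the stage that comes before it in the mouse estrous cycle. It used 6 of the 12 uteri of a study of the cycling uterus, chosen by the cycle stage in their labels: 3 in proestrus (replicates 1, 2 and 3) and 3 in diestrus (replicates 3, 4 and 5). All 12 came from wild-type Swiss Webster females, an outbred stock, aged 8 to 12 weeks, and no treatment or transgene was labelled, so that stage was the labelled difference between the groups. The other 6 uteri, 3 in estrus and 3 in metestrus, entered the estimate of the spread and the order of levels over the cycle. RNA of the whole organ was measured by 3' TagSeq, a method that sequences tags close to the polyadenylated end of each RNA and so counts transcripts with little dependence on their length. Epithelium, stroma, muscle, vessels and immune cells were therefore read together, and fewer cells of a type and less RNA per cell cannot be told apart. The labels did not say how the stage was determined, whether a library held more than 1 animal, or when the tissue was collected and processed. The p-values measure only the spread between these samples.

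The ovary drives the cycle of the uterus. In diestrus the corpora lutea secrete progesterone, which acts on the epithelium to make Indian hedgehog, a secreted signal read by the stroma beneath it. In proestrus the growing follicles secrete estradiol, which makes the epithelium proliferate and secrete, makes the stroma take up water and readies the muscle to contract.

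Libraries were similar in size, with 1742941 to 1988566 estimated counts in proestrus and 1726135 to 2014907 in diestrus. Levels are given as counts-per-million values (CPM), scaled by trimmed mean of M-values normalisation, and differences as log2 of proestrus over diestrus with their standard error (SE). A count of 3, the most that a count of 0 allows, was worth on this scale a mean of 1.62 CPM over the proestrus and 1.56 CPM over the diestrus libraries. Where every library of a stage lay at or under that floor, the difference is given only as a bound against the floor itself. For counts above 0 such a bound is approximate. No molecular identifiers were described, so these limits cover counting error only.

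Of 12052 genes tested, 1028 (8.53%) differed between proestrus and diestrus at an adjusted p under 0.05 (edgeR quasi-likelihood test, Benjamini-Hochberg adjustment over all genes tested). In proestrus 557 genes (4.62%) were higher and 471 (3.91%) lower, and 682 of the differences reached 2-fold, 384 upward and 298 downward. Differences of at least 8-fold were found for 65 higher and 36 lower genes. For 1025 of the 1028 genes the 3 proestrus values all lay on one side of the 3 diestrus values. Calls and overlap were read from the same values, so a lack of overlap adds no support to a call, here or for the genes below. The genes named for the largest differences or the smallest p were also chosen among genes without overlap. The share of all genes tested without overlap is not given here. The median log2 difference was 1.41 among the higher genes, -1.20 among the lower and -0.00028 over all genes tested. Correlations of log2 levels across genes were 0.953 to 0.957 between proestrus libraries, 0.939 to 0.955 between diestrus libraries and 0.877 to 0.919 between the stages. Genes are not independent replicates, and these values describe the libraries. Gene groups below are described by how many of their tested members were called, to be read beside these shares of all genes. The lists were chosen with earlier results of these data known, so their shares describe the members and test nothing.

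**Figure D1:**
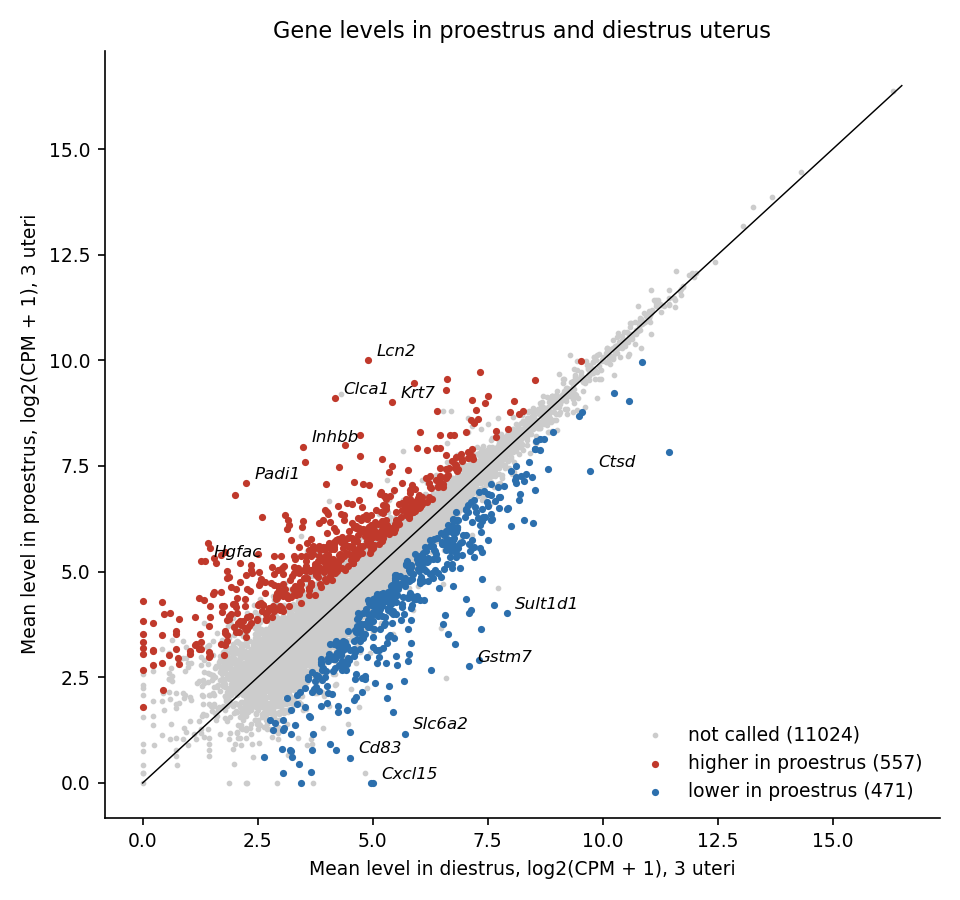
Mean level of each of the 12052 tested genes in proestrus (vertical axis) and diestrus (horizontal axis), both as log2(CPM + 1) over 3 uteri; red points are the 557 genes higher and blue points the 471 genes lower in proestrus, grey points were not called, and the line marks equal levels. Most genes lie along the line, and the called genes reach farthest from it at low and middle levels, with Lcn2, Clca1, Krt7 and Inhbb above it and Ctsd, Sult1d1 and Gstm7 below it.

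Secreted and surface proteins of the epithelium had the largest share of members called higher among the lists examined. Of 23 tested members of a list of 25 estrogen-responsive secreted and surface proteins, 14 were called higher and 1 lower, with a median log2 difference of 2.28 (2.20 with the member at the detection floor set to its bound). Padi1 (chr4:140812983-140845778), a peptidylarginine deiminase that converts arginine in proteins to citrulline, measured 102, 153 and 153 CPM in proestrus and 3.99, 4.45 and 2.83 CPM in diestrus. It was 35.3-fold higher in proestrus (log2 5.14, SE 0.38, adjusted p = 2.67e-05), the smallest adjusted p of all genes, and every proestrus uterus lay far above every diestrus uterus. Padi2, of the same enzyme family, measured 115, 142 and 142 CPM against 20.9, 16.3 and 7.36 CPM (log2 3.14, SE 0.37). Muc4, a membrane mucin, measured 25.7, 52.8 and 32.0 CPM in proestrus and 1.99, 0.494 and 1.70 CPM in diestrus (log2 4.67, SE 0.65). The exons of Muc4 overlap those of Muc20 on the opposite strand, and reads of the 2 genes cannot be told apart if strand was not used in counting. None of these 3 genes overlapped between the stages. The 1 member called lower was Lyz2, the lysozyme of macrophages, at 96.4, 88.4 and 84.2 CPM against 225, 154 and 260.3 CPM; it shares 32.8% of its sequence words of 31 bases with Lyz1, so its level is uncertain. The count of higher members fell to 7 without Proestrus 2 or Diestrus 4, and to 9 without Proestrus 3 or Diestrus 5.

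Of the 12 largest differences upward, 5 more are given here for their size. Clca1, a secreted protein that regulates chloride channels and mucus, measured 465, 836 and 349 CPM in proestrus and 25.9, 2.97 and 22.6 CPM in diestrus, so that the diestrus uteri ranged widely among themselves at low levels but none came near proestrus (log2 5.005, SE 1.02, adjusted p = 0.00781). Hgfac, a serine protease that activates hepatocyte growth factor, measured 28.0, 52.8 and 30.4 CPM against 1.496, 1.48 and 1.70 CPM. All 3 diestrus libraries held 3 counts, the floor itself. The 23.8-fold higher level of Hgfac in proestrus is therefore the observed ratio and not a lower bound (adjusted p = 0.000117). Mfsd4a, a membrane transporter of the major facilitator superfamily, measured 167, 232 and 177 CPM against 16.0, 9.39 and 6.23 CPM (log2 4.17, SE 0.35, adjusted p = 3.74e-05), although its exons overlap Elk4 on the opposite strand. Slc16a14, of the monocarboxylate transporter family, measured 18.3, 69.5 and 28.4 CPM against 1.496, 1.48 and 2.83 CPM, and its call was lost with limma-voom (adjusted p = 0.0722). Sfn, the 14-3-3 sigma protein of epithelial cells, measured 33.1, 34.5 and 40.1 CPM against 0.997, 0.494 and 4.53 CPM, and 26.7% of its 31-base words also occur in the predicted gene Gm7850.

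**Figure D2:**
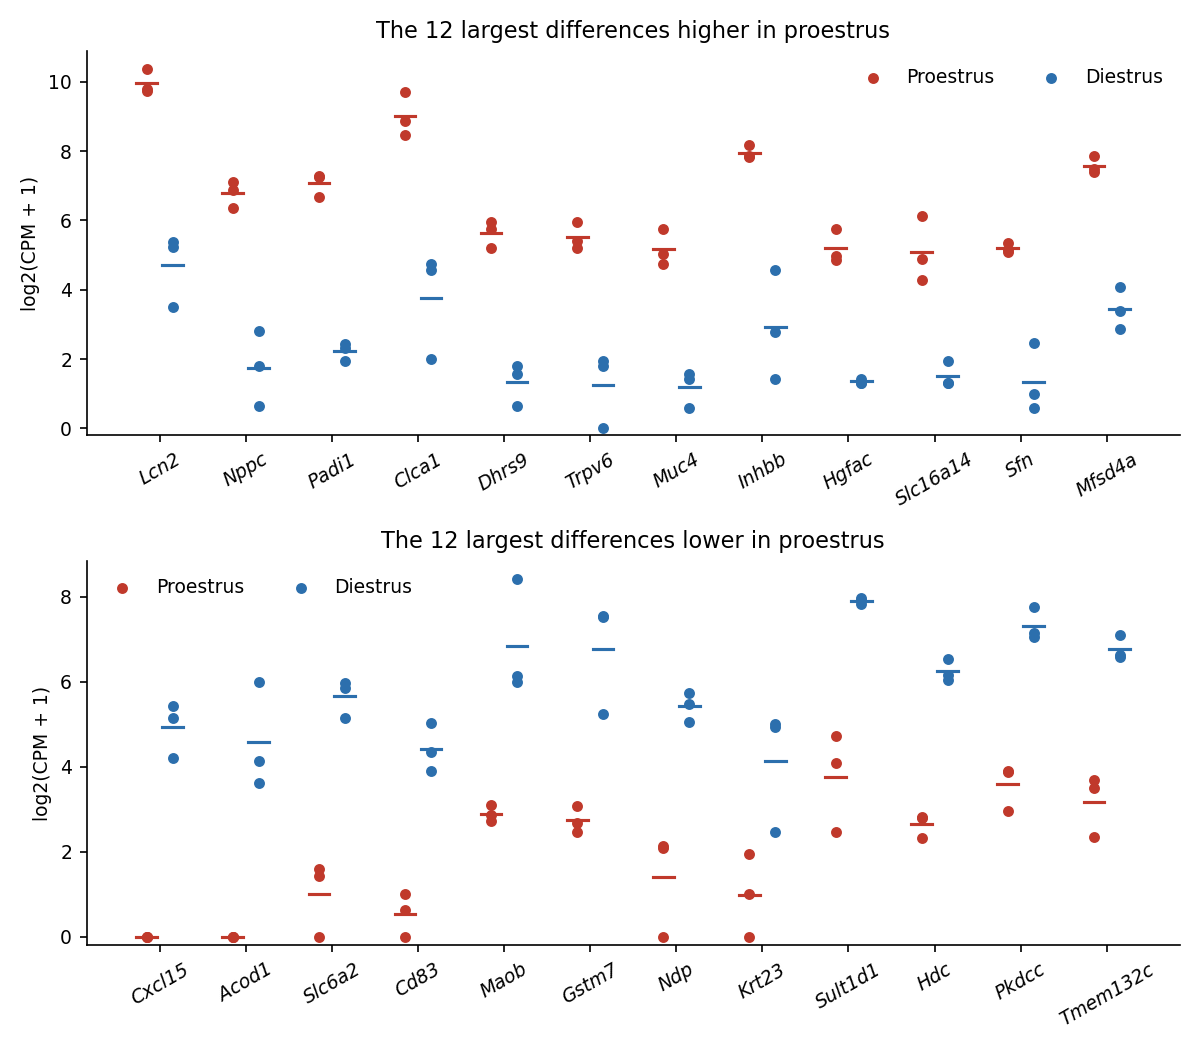
Levels in each uterus, as log2(CPM + 1), of the 12 genes with the largest differences higher in proestrus (top) and lower in proestrus (bottom); red points are the 3 proestrus uteri, blue points the 3 diestrus uteri, and bars mark the mean of each stage. The genes were chosen among those whose stages did not overlap, so the separation of red and blue points in the 24 columns follows from that choice; the widest spread within a stage is among the diestrus values of Inhbb and Clca1 at the top and of Krt23 and Acod1 at the bottom.

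Genes of keratins and cell junctions were called in both directions, more of them higher than lower. Of 28 tested members of a list of 30 epithelial genes, 16 were called higher and 3 lower in proestrus, with a median log2 difference of 1.26. Krt7, a keratin of simple epithelia, measured 404, 664 and 487 CPM in proestrus and 39.9, 26.7 and 58.9 CPM in diestrus, a 12.4-fold difference (log2 3.64, SE 0.34, adjusted p = 5.34e-05). Over the 10 tested keratins, counted after their values were seen, 5 were called higher and 1 lower. The 1 called lower was Krt23, a type I keratin, at 2.85, 0 and 1.01 CPM against 30.9, 29.7 and 4.53 CPM (log2 -4.05, SE 0.88), whose call was lost with limma-voom and without Proestrus 2 or Proestrus 3 (adjusted p up to 0.208). Elf3, an epithelial transcription factor, measured 232, 293 and 238 CPM against 19.4, 16.8 and 23.8 CPM (log2 3.67, SE 0.42). For Krt7 and Elf3, even the lowest proestrus uterus lay far above the highest diestrus uterus. Perp, a protein of desmosomes, measured 78.1, 95.4 and 72.1 CPM against 20.4, 9.89 and 15.3 CPM, and Cldn7, a tight junction claudin, 42.2, 53.4 and 44.2 CPM against 15.0, 11.4 and 16.4 CPM. Claudins did not move as 1 group. Cldn3 was lower in proestrus at 61.0, 96.5 and 56.3 CPM against 119.7, 185 and 123 CPM, with no overlap, and lost its call without Diestrus 4, Proestrus 1 or Proestrus 3 (adjusted p up to 0.0956 over all settings). Cldn4 and the homeobox gene Msx1 were the other 2 called lower, and the lower count was 1 without Proestrus 1 or any 1 diestrus library and 0 without Proestrus 3. Msx1, a transcription factor of the receptive epithelium, measured 78.7, 154 and 107 CPM against 298, 259 and 322 CPM and lost its call without Diestrus 3, Diestrus 5, Proestrus 1 or Proestrus 3 (adjusted p up to 0.104). The summed level of the epithelial list was 2751 to 3685 CPM in proestrus and 1294 to 1607 CPM in diestrus, so the level of the list moved in the same direction as the epithelial genes called higher and opposite to those called lower; its part in those results was not tested.

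Small proline-rich proteins, which are crosslinked beneath the membrane of barrier epithelia, were called higher for 4 of the 8 tested members of a list of 16, and for none lower. The median log2 difference was 2.63 (2.27 with 2 members at their bounds), and 6 members of the list had no counts in either stage. Sprr2g measured 31.9, 25.3 and 24.4 CPM in proestrus and 5.98, 4.45 and 4.53 CPM in diestrus (log2 2.43, SE 0.37, adjusted p = 0.00156), and the stages did not overlap. Sprr2a2 and Sprr2a3 share 97.8% and 73.6% of their 31-base words with Sprr2a1, and their separate levels are uncertain. With limma-voom 2 of the 4 calls were left. Markers of stratified squamous epithelium, which would be read if vagina or cervix had been included, summed to 23.3 to 26.2 CPM in proestrus and 13.3 to 30.4 CPM in diestrus over 18 genes, and Krt16, Krt6a, Dsg3 and Dsc3 were at 0 in all 6 uteri. The highest members were Krt10, at 10.3, 15.1 and 11.7 CPM against 9.97, 7.91 and 14.1 CPM, and Sbsn, at 6.85, 3.23 and 4.57 CPM against 11.5, 1.98 and 7.92 CPM. Krt5, Krt13 and Ivl had counts in proestrus only and Krt14 and Krtdap in diestrus only, none above 2.28 CPM.

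Sterol synthesis was the metabolic pathway with the largest share of members called higher. The pathway builds cholesterol from acetyl-CoA through mevalonate and isoprenoids, and its genes share a transcriptional control that responds to the sterol content of the cell. Of 32 tested members of a list of 33 sterol and fatty acid genes, 13 were called higher and 1 lower, with a median log2 difference of 0.80; 26 of the 32 were higher in proestrus without regard to the test. Idi1, the isomerase of the isoprenoid unit, measured 29.7, 43.7 and 47.7 CPM in proestrus and 5.48, 6.43 and 6.79 CPM in diestrus (log2 2.69, SE 0.32, adjusted p = 0.000256). Fdps, which joins isoprenoid units to farnesyl diphosphate, measured 38.8, 50.1 and 61.4 CPM against 18.9, 13.3 and 14.7 CPM (log2 1.67, SE 0.27). The stages did not overlap for either enzyme. Idi1 and Fdps share 18.8% and 27.9% of their 31-base words with predicted genes, which leaves their levels uncertain to that extent. Insig1, the membrane protein that holds back the sterol-sensing activators of the pathway, was also higher, at 35.4, 49.6 and 60.9 CPM against 21.9, 19.8 and 19.8 CPM (log2 1.25, SE 0.20). Also called higher were Cyp51, Fdft1, Stard4, Msmo1, Hmgcs1, Mvd and Sqle, named after their values were seen. The 1 member called lower, Fads2, is a fatty acid desaturase, at 16.54, 13.5 and 20.3 CPM against 28.9, 54.9 and 36.8 CPM; its call was lost without Proestrus 2 (adjusted p = 0.0538). Without Proestrus 2 or Proestrus 3 the higher count was 8, and with genes of a mean of at least 50 counts alone it was 5, since fewer members were then tested.

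The promoters of these genes are shown because they moved together. Of the 13 sterol genes called higher, 6 had an entry in the RefSeq promoter table of GRCm38.p6, which gives 250 bases before and 50 after a gene's start. CCAAT, read on both strands, was found in the windows of all 6 and in 42.8% of the 9288 tested genes with an entry; it also occurred in 19 of the 22 sterol genes tested with an entry, called or not. The sterol regulatory element, searched as TCACNCCAC on both strands, was found in 1 of the 6 and in 1.29% of all windows. Cyp51 and Insig1 held 1 CCAAT match each, fewer than the others, and their sequences are not printed. The 250 bases before the start of the other 4 genes follow, 5' to 3' on the strand of the gene. Capitals mark CCAAT, which reads as its reverse complement where it lies on the other strand, and, in Hmgcs1, the sterol regulatory element.
Hmgcs1, chr13:119690101-119690350, plus strand: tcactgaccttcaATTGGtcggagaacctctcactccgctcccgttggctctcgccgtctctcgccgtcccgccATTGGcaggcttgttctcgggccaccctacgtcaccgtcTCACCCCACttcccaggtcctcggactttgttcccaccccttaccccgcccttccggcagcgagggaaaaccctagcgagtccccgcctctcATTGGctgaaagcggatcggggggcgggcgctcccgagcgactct
Idi1, chr13:8885356-8885605, plus strand: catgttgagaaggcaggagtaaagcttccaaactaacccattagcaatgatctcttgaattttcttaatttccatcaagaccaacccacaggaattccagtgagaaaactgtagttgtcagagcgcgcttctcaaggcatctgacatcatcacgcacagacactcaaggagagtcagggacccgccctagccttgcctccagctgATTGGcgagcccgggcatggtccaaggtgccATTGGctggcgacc
Msmo1, chr8:64733579-64733828, minus strand: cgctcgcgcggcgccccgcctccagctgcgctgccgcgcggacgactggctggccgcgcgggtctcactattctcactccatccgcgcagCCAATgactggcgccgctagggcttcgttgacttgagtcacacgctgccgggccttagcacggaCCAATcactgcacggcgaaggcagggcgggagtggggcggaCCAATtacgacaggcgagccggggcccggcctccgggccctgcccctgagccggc
Mvd, chr8:122443423-122443672, minus strand: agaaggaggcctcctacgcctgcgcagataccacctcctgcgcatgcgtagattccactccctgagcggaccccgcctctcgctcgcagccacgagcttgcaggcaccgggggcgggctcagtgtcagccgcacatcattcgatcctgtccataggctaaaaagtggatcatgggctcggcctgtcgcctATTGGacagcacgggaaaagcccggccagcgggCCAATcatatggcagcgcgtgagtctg
Hmgcs1 condenses acetyl units to the precursor of mevalonate, Msmo1 removes methyl groups from the sterol ring, and Mvd makes the isoprenoid unit that Idi1 isomerises. In this window Hmgcs1 held 3 CCAAT matches and a sterol regulatory element beginning 137 bases before the start, Msmo1 held 3 CCAAT matches, and Idi1 and Mvd held 2 each. A match is a description of the letters and not evidence that a factor was bound.

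Hmgcs1 measured 47.3, 63.1 and 69.0 CPM in proestrus and 27.4, 27.7 and 31.1 CPM in diestrus (log2 1.06, SE 0.25, adjusted p = 0.018). Msmo1 measured 21.1, 33.4 and 39.6 CPM against 9.97, 11.9 and 10.2 CPM (log2 1.55, SE 0.33), and Mvd 17.7, 24.3 and 17.3 CPM against 11.5, 8.40 and 3.96 CPM (log2 1.29, SE 0.34). All 3 lay higher in each proestrus uterus than in any diestrus uterus. Calls of Hmgcs1 were lost without Diestrus 3, Diestrus 4, Proestrus 2 or Proestrus 3, that of Msmo1 without Proestrus 3, and that of Mvd without Diestrus 4, Diestrus 5 or any 1 proestrus library (adjusted p up to 0.0784, 0.0572 and 0.141). Over the cycle Idi1 averaged 40.3 CPM in proestrus, 2.55 in estrus, 8.38 in metestrus and 6.23 in diestrus. The fall from proestrus to estrus passed the test (adjusted p = 6.74e-05), whereas metestrus and diestrus did not differ beyond their spread (adjusted p = 0.721). Fdps had the same order, with means of 50.1, 16.7, 15.7 and 9.62 CPM in proestrus, metestrus, diestrus and estrus, and was likewise lower in estrus than in proestrus (adjusted p = 0.000327).

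**Figure D3:**
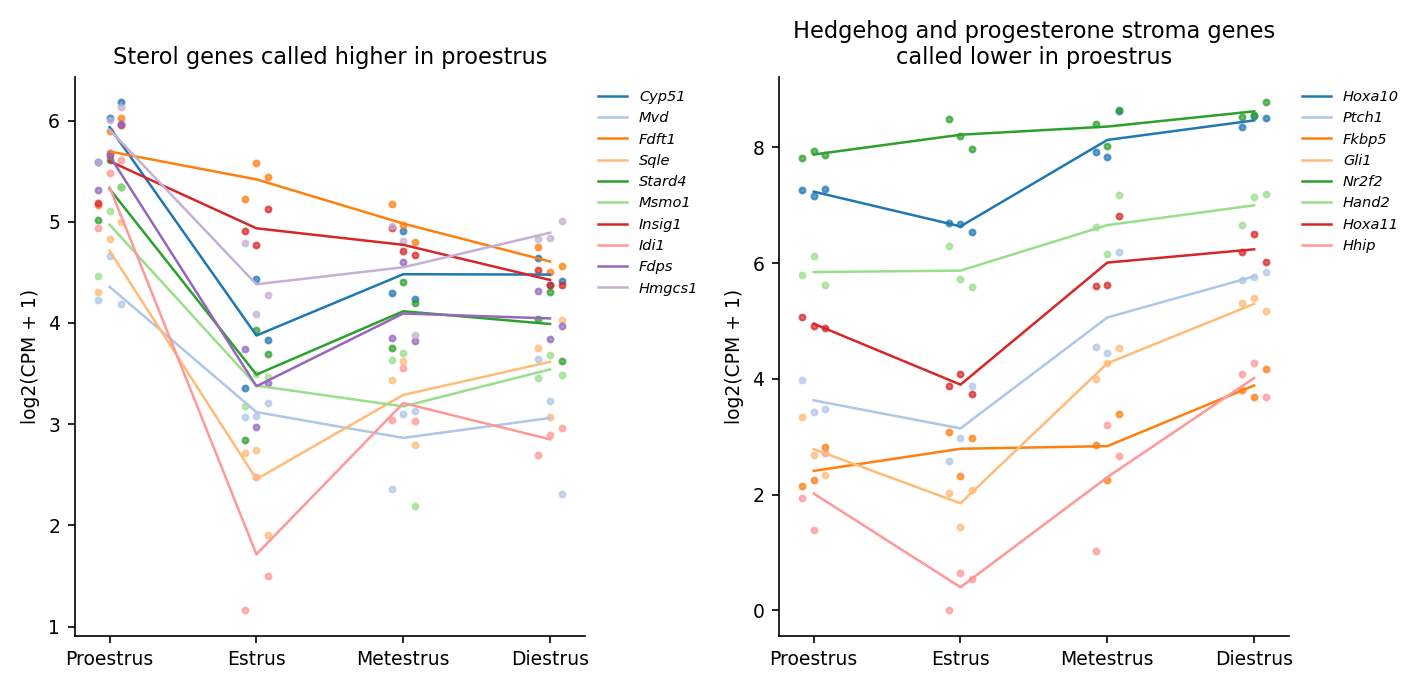
Levels over the 4 stages, as log2(CPM + 1), of 10 of the 13 sterol genes called higher in proestrus (left) and of 8 of the 9 hedgehog and progesterone genes of the stroma called lower in proestrus (right); points are single uteri, 3 per stage, and lines join stage means. Most sterol genes are highest in proestrus, with Idi1 falling to a mean of 2.55 CPM in estrus, and the stroma genes Gli1 and Ptch1 are lowest in estrus and highest in diestrus.

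Members of the hedgehog pathway were called lower in proestrus than in diestrus. Indian hedgehog, Ihh, is made by the epithelium under progesterone; its receptor Ptch1 and the transcription factor Gli1 are also its transcriptional targets in the stroma. Ihh measured 0.57, 1.08 and 0.507 CPM in proestrus and 16.0, 14.3 and 22.1 CPM in diestrus. All 3 proestrus uteri were at the floor, and Ihh was at least 10.8-fold lower there (adjusted p = 0.000358). Gli1 measured 9.13, 5.39 and 4.06 CPM against 38.9, 41.0 and 35.1 CPM (log2 -2.63, SE 0.28, adjusted p = 0.000133), with exons that overlap Arhgap9 on the opposite strand. Ptch1 measured 14.8, 9.70 and 10.1 CPM against 51.4, 52.9 and 56.6 CPM (log2 -2.21, SE 0.44). The stages did not overlap for the ligand, its receptor or Gli1. The call of Ptch1 was lost when counts were scaled from the deposited transcripts-per-million values (TPM; adjusted p = 0.842).

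Of 19 tested members of a list of 22 hedgehog and progesterone targets of the stroma, 9 were called lower and 1 higher in proestrus (median log2 -0.75). Hoxa10, a homeobox gene that patterns the uterus and that its stroma needs to respond to progesterone, measured 152, 142 and 155 CPM against 327, 369.8 and 363 CPM (log2 -1.24, SE 0.18, adjusted p = 0.00117). Hand2, a stromal factor induced by progesterone, measured 54.2, 69.0 and 48.2 CPM against 99.7, 140.4 and 146 CPM, and lost its call without Diestrus 5, Proestrus 1 or Proestrus 3 (adjusted p up to 0.0636). Hoxa11 measured 32.5, 29.1 and 28.4 CPM against 72.3, 89.5 and 64.0 CPM; without Proestrus 2 its adjusted p was 0.0504. Hoxd10 and Hoxd11, from another HOX cluster, were also lower in proestrus, Hoxd10 at 31.4, 27.0 and 39.6 CPM against 69.8, 66.7 and 68.5 CPM and Hoxd11 at 47.9, 34.0 and 37.0 CPM against 98.7, 102 and 105 CPM. The 1 member called higher was Cebpb, a transcription factor that estrogen also induces, at 122, 99.7 and 109 CPM in proestrus and 45.9, 34.6 and 32.3 CPM in diestrus (log2 1.55, SE 0.17, adjusted p = 0.00019); its exons overlap Tmem189 on the opposite strand. The count of lower members was 5 without Proestrus 1 or Proestrus 2. The GLI site, searched as GACCACCCA on both strands, occurred in none of the 7 windows of lower members with a promoter entry and in 0.258% of all windows.

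Progesterone-responsive genes of the epithelium were called lower for 7 and higher for 1 of 15 tested members of a list of 21, with a median log2 difference of -1.20 (-1.13 with the 4 members at the floor set to their bounds). Sox17, an epithelial transcription factor that controls Ihh, measured 49.1, 45.3 and 48.2 CPM in proestrus and 108, 111 and 92.8 CPM in diestrus (log2 -1.13, SE 0.14, adjusted p = 0.000367). Lrp2, an endocytic receptor of the lipoprotein receptor family, measured 2.28, 2.70 and 4.06 CPM against 36.4, 56.4 and 23.8 CPM (log2 -3.65, SE 0.69). Stx18, a protein of membrane fusion, measured 42.2, 42.6 and 47.7 CPM against 75.3, 145 and 90.0 CPM, with exons that overlap Nsg1 on the opposite strand. These 3 genes showed no overlap between the stages. Arg1, which splits arginine to ornithine, went the other way. It measured 39.9, 46.4 and 37.6 CPM in proestrus and 1.496, 2.97 and 2.26 CPM in diestrus (log2 4.16, SE 0.73, adjusted p = 0.00326) and was higher still in estrus, at a mean of 284 CPM.

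Transcripts of the receptors for estrogen and progesterone did not pass the test. Esr1, the main estrogen receptor of the uterus, measured 322, 292 and 263 CPM in proestrus and 252, 222 and 216 CPM in diestrus (log2 0.35, SE 0.15, adjusted p = 0.205). Pgr, the progesterone receptor, measured 271, 221 and 282 CPM against 307, 164 and 173 CPM (log2 0.27, SE 0.26, adjusted p = 0.627), and 1 diestrus uterus was above all 3 proestrus uteri. Nr3c1, the glucocorticoid receptor, measured 52.5, 71.2 and 53.8 CPM against 69.8, 72.7 and 69.0 CPM (adjusted p = 0.46). Of 15 tested members of a list of 19 receptors and cofactors, 1 was called higher and 1 lower. Nrip1, a corepressor that estrogen induces, was higher at 216, 191 and 179.7 CPM against 127, 97.9 and 88.3 CPM (log2 0.91, SE 0.18), and lost its call with counts scaled from TPM (adjusted p = 0.0687). Fkbp5, a chaperone partner of the receptors that glucocorticoid and progesterone induce, was lower at 3.42, 3.77 and 6.09 CPM against 13.0, 11.9 and 16.98 CPM, and lost its call without Diestrus 5, Proestrus 1 or Proestrus 2 (adjusted p up to 0.086).

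**Figure D4:**
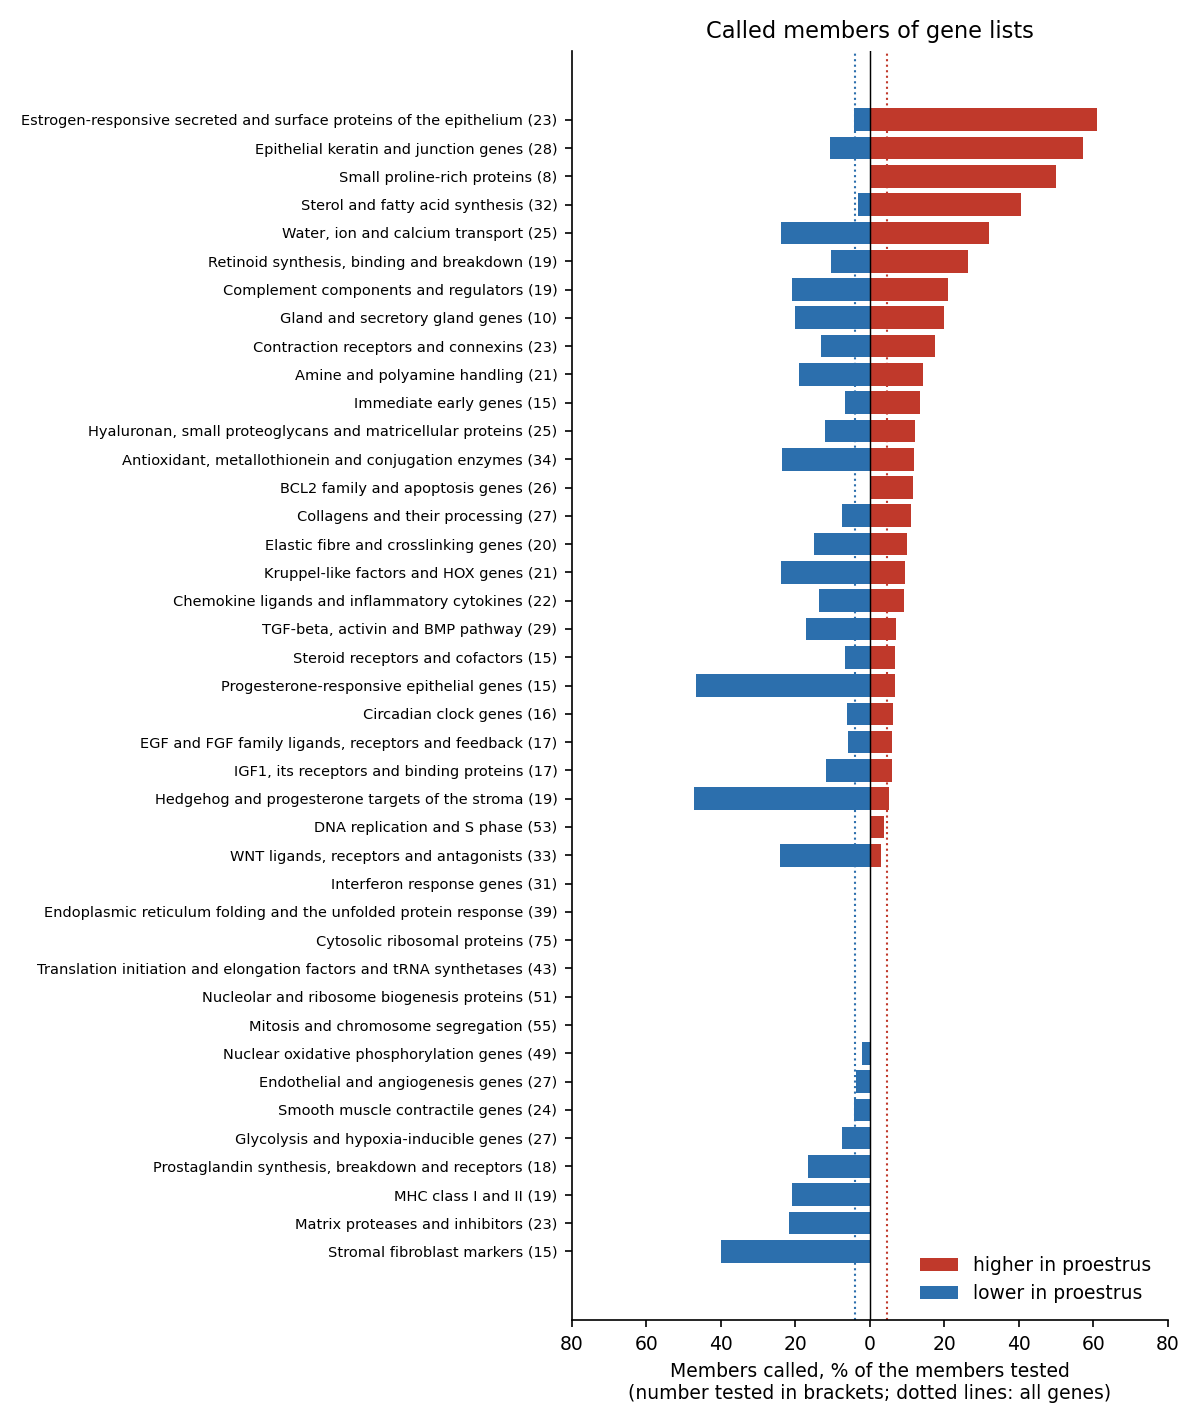
Share of the tested members of each gene list called higher (red, to the right) or lower (blue, to the left) in proestrus at an adjusted p under 0.05, in percent, with the number tested in brackets; dotted lines mark the shares over all genes tested, 4.62% higher and 3.91% lower. The epithelial, small proline-rich and sterol lists extend farthest to the right, the fibroblast, stroma and progesterone lists farthest to the left, and 6 lists from mitosis to interferon response have no called member.

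Secreted signals of the activin, BMP and WNT families also differed. Inhbb (chr1:119415465-119422248), the beta B subunit from which activin B is made, measured 287, 225 and 232 CPM in proestrus and 22.9, 5.93 and 1.70 CPM in diestrus (log2 4.57, SE 0.68, adjusted p = 0.00128). All proestrus uteri were close to each other, and the diestrus uteri ranged widely at low levels. In estrus Inhbb averaged 71.9 CPM and in metestrus 61.9 CPM. Gdf10, a ligand of the same superfamily, was lower at 33.7, 41.5 and 30.96 CPM against 100.2, 69.2 and 121 CPM (log2 -1.45, SE 0.24), and so were the BMP target genes Id2, at 96.4, 65.8 and 70.0 CPM against 124, 129.5 and 130.2 CPM, and Id3, at 49.1, 32.3 and 33.5 CPM against 83.3, 91.5 and 61.7 CPM. Both Id genes lost their calls without Diestrus 4, Proestrus 2 or Proestrus 3, and Id2 also without Diestrus 5 (adjusted p up to 0.0855 and 0.0767). Of 29 tested members of a list of 35, 2 were called higher and 5 lower (median log2 -0.23). The lower count was 2 without Diestrus 4 and 1 without Proestrus 2 or Proestrus 3.

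In the WNT pathway, which patterns the uterus and its glands, 8 of 33 tested members of a list of 41 were called lower and 1 higher (median log2 -0.14). Sfrp2, a secreted WNT antagonist of the stroma, measured 15.4, 19.9 and 8.63 CPM in proestrus and 97.7, 79.1 and 108 CPM in diestrus (log2 -2.69, SE 0.32, adjusted p = 0.000256). Its relative Sfrp1 measured 20.5, 26.4 and 17.3 CPM against 46.9, 42.0 and 77.5 CPM (log2 -1.37, SE 0.26). Lef1, the transcription factor at the end of the pathway, measured 5.70, 12.4 and 3.04 CPM against 38.9, 44.5 and 50.9 CPM (log2 -2.66, SE 0.37), and the receptor Fzd1 16.54, 14.0 and 17.8 CPM against 35.9, 45.0 and 37.4 CPM. Antagonists, a receptor and the effector were thus lower together, each without overlap. Ror2, a receptor tyrosine kinase for WNT5A, was higher at 19.96, 21.02 and 22.3 CPM against 7.98, 6.43 and 11.9 CPM, and its call was lost without Diestrus 4 (adjusted p = 0.0537). Ndp, the norrin ligand that acts through a frizzled receptor and was not on the list, was among the 12 largest differences downward at 3.42, 3.23 and 0 CPM against 32.4, 51.9 and 43.6 CPM (log2 -4.26, SE 0.50, adjusted p = 0.000256). Pkdcc, a secreted protein kinase, was lower at 6.85, 14.0 and 13.7 CPM against 131, 141 and 215 CPM (log2 -3.80, SE 0.34), and Egfr, the EGF receptor, at 17.1, 18.3 and 11.7 CPM against 39.9, 41.5 and 46.4 CPM (log2 -1.44, SE 0.23). Dusp6, a phosphatase that limits ERK signalling, was higher at 31.9, 31.8 and 37.0 CPM against 11.5, 15.3 and 13.0 CPM (log2 1.34, SE 0.19).

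Transport of ions and water, which sets the fluid in the lumen, held genes that rose and genes that fell. Of 25 tested members of a list of 36, 8 were called higher and 6 lower. Trpv6, an epithelial calcium channel, measured 41.1, 61.5 and 36.0 CPM in proestrus and 2.49, 0 and 2.83 CPM in diestrus (log2 4.68, SE 0.53, adjusted p = 0.000202). Car2, a carbonic anhydrase that makes bicarbonate, measured 704, 810.2 and 609.5 CPM against 70.3, 59.8 and 45.3 CPM, a 12.1-fold difference. Each proestrus uterus was far above each diestrus uterus for both. Scnn1b, a subunit of the epithelial sodium channel that draws fluid out of the lumen, measured 0.57, 0.539 and 1.01 CPM against 6.48, 11.9 and 16.98 CPM. It was at least 7.28-fold lower in proestrus, where every library was at the floor, and its call was lost with limma-voom, with counts scaled from TPM, and without Diestrus 5 or any 1 proestrus library (adjusted p up to 0.115). Ano1, a calcium-activated chloride channel also found in muscle, was lower at 91.8, 69.5 and 60.9 CPM against 287, 297 and 346 CPM (log2 -2.07, SE 0.21, adjusted p = 9.19e-05). Atp1b1, a subunit of the sodium pump, was lower at 41.6, 51.8 and 45.7 CPM against 140.1, 220.5 and 122 CPM, with exons that overlap Nme7 on the opposite strand. The higher count was 4 without Diestrus 4 or Proestrus 2, and the lower count 3 without Diestrus 5 or Proestrus 2 and 2 without Proestrus 3.

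Genes of contraction and its nerves moved in both directions as well, with 4 of 23 tested members of a list of 30 called higher and 3 lower. Oxtr, the oxytocin receptor of muscle and epithelium, measured 65.6, 39.4 and 97.9 CPM in proestrus and 12.5, 7.41 and 4.53 CPM in diestrus (log2 3.03, SE 0.38, adjusted p = 0.000358). Gap junction genes were higher too. Gjb2 (connexin 26, of the epithelium) measured 84.4, 73.3 and 82.7 CPM against 7.98, 4.45 and 10.2 CPM (log2 3.41, SE 0.56), and Gja1 (connexin 43, which couples muscle and stromal cells) 55.9, 50.7 and 57.3 CPM against 33.9, 29.7 and 27.7 CPM (log2 0.84, SE 0.20). The call of Gja1 was lost with counts scaled from TPM and without Diestrus 4, Diestrus 5, Proestrus 1 or Proestrus 3 (adjusted p up to 0.0703). Nppc, the C-type natriuretic peptide, measured 137, 80.9 and 116 CPM against 5.98, 2.47 and 0.566 CPM (log2 5.14, SE 0.71). It was lower again in estrus, at 3.71, 1.72 and 1.37 CPM. Monoamine oxidases, which break down serotonin and catecholamines, were lower in proestrus. Maoa measured 37.1, 27.0 and 30.96 CPM against 86.2, 72.2 and 84.3 CPM (log2 -1.35, SE 0.23), and Maob 6.27, 7.55 and 5.58 CPM against 69.3, 342 and 62.3 CPM (log2 -4.60, SE 0.94, adjusted p = 0.00815), with Diestrus 4 well above the other 2 diestrus uteri and a call that was lost with limma-voom (adjusted p = 0.0722). The third called lower was Slc6a2, the noradrenaline transporter, and limma-voom called 1 of the 3. The prostaglandin receptors Ptgfr, at 7.99, 3.23 and 3.04 CPM against 12.5, 30.2 and 39.6 CPM, and Ptger3, at 12.5, 19.4 and 18.3 CPM against 38.9, 47.0 and 80.9 CPM, were also lower (log2 -2.52, SE 0.52, and log2 -1.72, SE 0.35). Contractile proteins of smooth muscle gave 1 call, lower, among 24 tested members of a list of 25, namely Synpo2 at 183, 172 and 222 CPM against 341, 328 and 339 CPM, lost without Proestrus 1 or Proestrus 2 (adjusted p up to 0.0817).

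Metallothioneins, which bind metals, and most of the glutathione transferases tested, which conjugate reactive compounds, were lower in proestrus. Mt2 measured 18.8, 11.9 and 21.8 CPM in proestrus and 163, 292 and 142 CPM in diestrus (log2 -3.50, SE 0.36, adjusted p = 9.19e-05), and Mt1 86.1, 57.1 and 67.5 CPM against 265, 506 and 294 CPM (log2 -2.34, SE 0.36). Gstm7 measured 7.42, 5.39 and 4.57 CPM against 184, 37.1 and 185 CPM (log2 -4.54, SE 0.66), with Diestrus 4 well below the other 2 diestrus uteri. Every one of these 3 genes was lower in all proestrus uteri than in any diestrus uterus. Gstm1 and Gstm2 were lower as well, at 87.3, 55.5 and 58.4 CPM against 263, 326 and 181 CPM and 58.2, 52.8 and 47.2 CPM against 154, 299.6 and 88.9 CPM, though they share 28.8% and 12.2% of their 31-base words with near copies. Over the 7 tested glutathione transferases of the mu and alpha classes, counted after their values were seen, 5 were called lower and 1 higher. The 1 called higher was Gsta3, at 8.56, 5.93 and 4.06 CPM against 0.997, 0 and 0 CPM, at least 3.97-fold higher because every diestrus library was at the floor. Sult1d1, a sulfotransferase of amines, measured 16.0, 25.3 and 4.57 CPM against 251, 227 and 240.0 CPM; its call was lost without Proestrus 1 or Proestrus 3 (adjusted p up to 0.0749). In the same list Cbr2, a carbonyl reductase, was higher at 554, 832 and 507 CPM against 108, 122 and 56.6 CPM (log2 2.72, SE 0.47, 15.0% of words shared with a predicted gene), and the selenium enzyme Gpx1, which removes peroxides, at 378, 437 and 493 CPM against 245, 270.4 and 245 CPM (log2 0.78, SE 0.16). In all 4 of 34 tested members of the list of 39 antioxidant, metallothionein and conjugation genes were called higher and 8 lower. Without Proestrus 2 the counts were 2 and 5, without Proestrus 3 or Diestrus 5 the lower count was 5, and without Diestrus 4 the higher count was 2.

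Retinoic acid is made from retinol by successive oxidations, and enzymes of both steps were higher in proestrus. Dhrs9, which oxidises retinol, measured 53.0, 60.4 and 36.0 CPM in proestrus and 1.99, 2.47 and 0.566 CPM in diestrus (log2 4.80, SE 0.51, adjusted p = 0.000117). Adh1, an alcohol dehydrogenase for retinol and ethanol, measured 243, 182 and 297 CPM against 90.7, 68.7 and 85.5 CPM (log2 1.56, SE 0.20), and Aldh1a2, the stromal enzyme of the second step, 114, 103 and 111 CPM against 33.4, 30.6 and 57.7 CPM (log2 1.43, SE 0.26). Rara, a retinoic acid receptor, was higher at 62.2, 52.3 and 56.3 CPM against 30.9, 29.2 and 26.6 CPM (log2 0.97, SE 0.15). None of the 4 overlapped between the stages. Stra6, the receptor that takes retinol up from its carrier in blood, was lower at 4.56, 7.55 and 7.10 CPM against 38.9, 20.8 and 102 CPM (log2 -3.04, SE 0.50). In all 5 of 19 tested members of a list of 24 were called higher and 2 lower, and the lower count was 1 with counts scaled from TPM and without Estrus 4 or any 1 of the 6 libraries compared. The other called lower was Fabp5, a carrier of fatty and retinoic acids (log2 -0.84, adjusted p up to 0.159). Of 21 tested members of a list of 22 genes of amine and polyamine handling, 3 were called higher and 4 lower (median log2 -0.06); the higher count was 5 without Metestrus 6. Aoc1, a diamine oxidase that breaks down histamine and putrescine, measured 15.4, 27.0 and 14.2 CPM in proestrus and had no counts in the 3 diestrus uteri. The proestrus level was at least 12.1-fold higher, with a call that was lost with limma-voom (adjusted p = 0.0646). Ass1, which makes argininosuccinate, was higher at 36.5, 38.8 and 23.9 CPM against 6.48, 9.89 and 5.09 CPM (43.1% of words shared with the predicted gene Gm5424), and Asl, the next enzyme of arginine synthesis, lower at 35.4, 24.8 and 24.9 CPM against 81.8, 113 and 69.6 CPM with a call that was lost with counts scaled from TPM and without Diestrus 4, Proestrus 2 or Proestrus 3 (adjusted p up to 0.0936). Arg2, the mitochondrial arginase, was lower at 2.85, 1.08 and 2.03 CPM against 13.5, 6.43 and 14.1 CPM, opposite to Arg1, with exons that overlap Vti1b on the opposite strand.

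Stromal fibroblast markers held called members in 1 direction. Of 15 tested members of a list of 15, 6 were called lower and none higher in proestrus (1 was higher at an unadjusted p under 0.05, and DESeq2 called 1 higher and limma-voom none), and 3 of these are also on the progesterone list. Pdgfra, the growth factor receptor of stromal fibroblasts, measured 55.3, 43.1 and 40.1 CPM in proestrus and 108, 117 and 117 CPM in diestrus (log2 -1.30, SE 0.15, adjusted p = 0.00019). The summed level of the 15 markers was 7248 to 7512 CPM in proestrus and 5604 to 7233 CPM in diestrus, higher in proestrus without overlap. Most of that sum was Col1a1, at 3144, 3247 and 3339 CPM against 2082, 2486 and 1753 CPM, and Dcn, at 2595, 2528 and 2303 CPM against 2062, 1701 and 1465 CPM. Neither was called, and 12 of the 15 markers had a negative and 3 a positive difference (median log2 -0.72). The count of lower members was 3 without any 1 of the proestrus libraries. Mme, the neprilysin peptidase of endometrial stroma, measured 18.3, 15.1 and 12.2 CPM against 126, 155 and 123 CPM (log2 -3.15, SE 0.24, adjusted p = 2.8e-05), the smallest adjusted p among the lower genes. Wfdc1, a secreted protein with a protease inhibitor fold, measured 31.9, 26.4 and 23.3 CPM against 148, 184 and 166 CPM (log2 -2.61, SE 0.23), and Tmem132c, a single-pass membrane protein, 10.3, 11.9 and 4.06 CPM against 94.7, 97.9 and 136 CPM (log2 -3.65, SE 0.31). Rhob, a small GTPase, was lower with little spread in either stage, at 71.3, 78.7 and 72.6 CPM against 182, 204 and 184 CPM (log2 -1.35, SE 0.12, adjusted p = 4.12e-05).

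Matrix genes were called in both directions. The crosslinking enzyme Lox measured 110.1, 84.1 and 135 CPM in proestrus and 34.9, 34.6 and 40.8 CPM in diestrus (log2 1.58, SE 0.22, adjusted p = 0.000862), and Plod2, which hydroxylates collagen lysines before crosslinking, 106, 81.9 and 124 CPM against 43.4, 35.1 and 36.2 CPM (log2 1.44, SE 0.26). Pcolce2, which speeds the trimming of procollagen, measured 43.9, 24.8 and 32.5 CPM against 11.5, 4.45 and 2.26 CPM (log2 2.44, SE 0.43). These 3 genes of collagen maturation were higher in every proestrus uterus. Ogn, a small leucine-rich proteoglycan, was higher at 269.8, 300.3 and 369 CPM against 194, 96.4 and 100.2 CPM, and its neighbours in the same gene cluster on chromosome 13, Aspn and Omd, were also called higher, Aspn at 46.8, 54.4 and 70.5 CPM against 30.4, 15.8 and 27.2 CPM and Omd at 12.5, 10.2 and 14.7 CPM against 2.49, 2.47 and 5.09 CPM. Aspn lost its call without Proestrus 3, and Omd without Proestrus 3, Diestrus 3 or Diestrus 4 (adjusted p up to 0.0516 and 0.0773). Aspn has exons that overlap Cenpp on the opposite strand. Col18a1, a basement membrane collagen, was lower at 122, 104 and 97.4 CPM against 217, 220.0 and 216 CPM (log2 -1.01, SE 0.18), as were the matricellular proteins Sparcl1, at 589, 604 and 599 CPM against 1178, 1084 and 1357 CPM, and Tnc, at 3.99, 3.77 and 2.54 CPM against 30.4, 10.9 and 37.9 CPM; Tnc lost its call with limma-voom and without Diestrus 5, Proestrus 2 or Proestrus 3 (adjusted p up to 0.115). Over 27 tested genes of collagens and their processing 3 were called higher and 2 lower, with a median log2 difference of -0.06; the higher count was 6 without Metestrus 5 and 5 without Metestrus 7, and the lower count was 4 without Metestrus 5 and 1 without Proestrus 1, Proestrus 3 or any 1 library of diestrus or estrus. Over 20 tested genes of elastic fibres and crosslinking 2 were called higher and 3 lower (median log2 -0.28). The higher count was 1 without Estrus 5 or any 1 of the 6 libraries compared. The lower count was 0 without Proestrus 1 or Proestrus 3, 1 without Proestrus 2 or any 1 diestrus library, and 5 without Metestrus 7. Over 25 tested genes of hyaluronan, proteoglycans and matricellular proteins 3 were called higher and 3 lower (median log2 -0.34). The higher count was 1 without Proestrus 3, and the lower count 1 without Diestrus 5, Proestrus 2 or Proestrus 3.

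Matrix proteases and their inhibitors were called lower for 5 of 23 tested members of a list of 27 and higher for none (none was higher at an unadjusted p under 0.05, and neither DESeq2 nor limma-voom called any higher). Mmp2, a gelatinase, measured 108, 83.0 and 77.6 CPM in proestrus and 215, 229 and 290.3 CPM in diestrus (log2 -1.45, SE 0.24, adjusted p = 0.00227), and Serpine2, an inhibitor of thrombin and plasminogen activators, 64.5, 30.7 and 36.5 CPM against 142, 106 and 164 CPM (log2 -1.65, SE 0.27). Without Proestrus 2 or Proestrus 3 the count was 2, and without Diestrus 3 or Diestrus 5 it was 3. Ctsd, a lysosomal protease, fell by 2.36 on the log2 scale (SE 0.21, adjusted p = 4.59e-05), from 737, 1102 and 704 CPM in diestrus to 137, 198 and 159 CPM in proestrus. Of its 31-base words 33.2% also occur in the predicted read-through gene Gm49369, so its count may be split. Tmprss4, a membrane serine protease of epithelia, was higher at 52.5, 59.3 and 48.2 CPM against 11.5, 10.9 and 12.5 CPM (log2 2.20, SE 0.19, adjusted p = 3.74e-05).

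Macrophage markers were called lower more often than higher. Of 23 tested members of a list of 26 macrophage and myeloid markers, 6 were called lower and 1 higher (median log2 -0.52), and the summed level was 614 to 701 CPM in proestrus against 848 to 1203 CPM in diestrus, without overlap. C1qc, a chain of complement C1q made by macrophages, measured 28.0, 35.6 and 35.5 CPM in proestrus and 57.3, 43.0 and 64.0 CPM in diestrus (log2 -0.72, SE 0.19, adjusted p = 0.029). The calls rest on few libraries. The lower count was 1 without Diestrus 3, Diestrus 5, Proestrus 1 or Proestrus 2, 2 without Proestrus 3 or Estrus 5 and 3 without Estrus 3 or Estrus 4, and limma-voom called 3. Itgam, an integrin of myeloid cells, was the 1 called higher, at 14.8, 10.8 and 15.7 CPM against 3.49, 3.46 and 1.13 CPM, but 68.0% of its words are shared with the predicted gene Gm49368 and limma-voom did not call it (adjusted p = 0.073). MHC genes were called lower for 4 of 19 tested, all of antigen presentation: H2-Aa at 90.1, 75.5 and 60.9 CPM against 194, 161 and 138 CPM, H2-Eb1 at 70.7, 57.1 and 97.9 CPM against 221, 180.4 and 174 CPM, and Cd74 and B2m. H2-Aa kept its call in every setting tried, H2-Eb1 lost it without Proestrus 2, and the lower count was 2 without Estrus 5 or any 1 of the 6 libraries compared. Cd83, a surface protein of activated dendritic and other cells, was at the floor in all 3 proestrus uteri, at 0, 0.539 and 1.01 CPM, and measured 14.0, 19.3 and 31.7 CPM in diestrus, at least 13.4-fold lower in proestrus (adjusted p = 0.000501).

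Mast cell markers summed to 31.4 to 39.1 CPM in proestrus and 109.7 to 162 CPM in diestrus, and Hdc, the enzyme that makes histamine, was the largest part of the diestrus sums. Hdc measured 3.99, 5.93 and 6.09 CPM in proestrus and 70.3, 92.4 and 64.5 CPM in diestrus (log2 -3.80, SE 0.47, adjusted p = 0.000323). Cma1, a mast cell chymase, was the other of 2 called lower among 7 tested members of a list of 10, at 2.28, 2.70 and 5.58 CPM against 9.97, 9.39 and 20.4 CPM, and lost its call with limma-voom and without Diestrus 5, Proestrus 1 or Proestrus 2 (adjusted p up to 0.111). Mcpt1, Mcpt2 and Ms4a2 of that list were at 0 in all 6 uteri. Of 22 tested members of a list of 41 chemokines and inflammatory cytokines, 2 were called higher and 3 lower. Ccl11 (eotaxin), which attracts eosinophils, was higher in proestrus at 34.2, 30.7 and 38.6 CPM against 3.99, 4.45 and 3.96 CPM (log2 3.04, SE 0.42, adjusted p = 0.000738), and Cxcl17, a mucosal chemokine, at 50.2, 105 and 41.1 CPM against 8.97, 7.91 and 13.0 CPM (log2 2.71, SE 0.51). Cxcl12, the stromal ligand of CXCR4, was lower at 105, 104 and 91.9 CPM against 245, 186 and 174 CPM (log2 -1.01, SE 0.20). Cxcl15, a chemokine of mucosal and gland epithelia, was at 0, 0 and 0 CPM in proestrus, at the floor in all 3, and 41.9, 34.6 and 17.5 CPM in diestrus, at least 19.4-fold lower in proestrus (adjusted p = 0.000917). The third called lower was Il17rb, an interleukin receptor subunit, which lost its call with limma-voom, with counts scaled from TPM and without Diestrus 4, Estrus 5 or any 1 proestrus library (adjusted p up to 0.252). The eosinophil markers Epx and Prg3 were at 0 in all 6 uteri, and that list summed to 16.2 to 23.2 CPM in proestrus and 16.4 to 26.4 CPM in diestrus. Its highest member was Alox15, at 17.7, 18.9 and 11.7 CPM against 20.9, 16.3 and 8.49 CPM. Complement held both directions, with 4 of 19 tested members of a list of 22 called higher and 4 lower. Cd55, which protects cells from complement, was higher at 72.4, 75.5 and 67.5 CPM against 29.9, 33.1 and 34.0 CPM (log2 1.15, SE 0.18, 11.4% of words shared with Cd55b). C3, the central component, measured 409.6, 1203 and 642 CPM against 85.7, 64.8 and 142 CPM and lost its call with counts scaled from TPM and without any 1 diestrus library, Proestrus 2 or Proestrus 3 (adjusted p up to 0.115). The higher count was 1 without Proestrus 2 or any 1 diestrus library and 2 without Proestrus 3, and the lower count was 2 without Diestrus 3, Diestrus 5 or any 1 proestrus library; limma-voom called 2 higher.

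Transcription factors and regulators of growth outside these pathways were also called. Klf4, a factor of epithelial differentiation, measured 488, 512 and 325 CPM in proestrus and 98.2, 76.6 and 73.6 CPM in diestrus (log2 2.41, SE 0.25, adjusted p = 0.000105), while Klf9, which progesterone and glucocorticoid regulate, was lower at 135, 153 and 121 CPM against 265, 276 and 287 CPM (log2 -1.02, SE 0.21). Bhlhe40, a repressor linked to the circadian clock, was higher at 66.7, 73.9 and 71.0 CPM against 14.0, 6.43 and 19.2 CPM (log2 2.43, SE 0.48); the time of day of dissection was not labelled. Cdkn1a, the p21 inhibitor of the cell cycle, was higher at 32.5, 30.7 and 29.4 CPM against 16.95, 12.4 and 13.6 CPM (log2 1.11, SE 0.22) and lost its call with counts scaled from TPM (adjusted p = 0.0741). Igfbp4, a binding protein that holds back IGF, was lower at 1074, 1013 and 895 CPM against 1862, 1482 and 2206 CPM, with calls lost without Diestrus 5, Proestrus 2 or Proestrus 3 (adjusted p up to 0.064).

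Genes of cell division were mostly higher in proestrus by sign, and the number called depended on the samples fitted. Among 53 tested genes of DNA replication 2 were called higher and none lower (12 were higher and none lower at an unadjusted p under 0.05, and DESeq2 and limma-voom each called 1 higher), with a median log2 difference of 0.42 and 45 of 53 higher without regard to the test. The 2 were Mcm3, of the replicative helicase, at 33.1, 32.9 and 36.0 CPM against 25.4, 18.3 and 19.8 CPM, and Cdc45, its partner, at 41.1, 32.3 and 82.7 CPM against 23.4, 30.2 and 18.7 CPM, with exons that overlap Ufd1 on the opposite strand. Both lost their calls in many settings, among them without Diestrus 4 and without Proestrus 3 (adjusted p up to 0.18 and 0.207). The count of replication genes called higher was 6 when the 6 samples were fitted alone, 4 without Metestrus 6, and 0 without Diestrus 4, Diestrus 5, Estrus 3, Estrus 4 or Proestrus 3. Among 55 tested genes of mitosis edgeR called none over all 12 samples, DESeq2 and limma-voom called 1 each, and 52 of the 55 had a positive difference. Fitted on the 6 samples alone edgeR called 10 higher, and it called 3 with no filter on low counts or without Metestrus 6, 2 without Metestrus 5 and 1 without Metestrus 7. Over all 12 samples 7 were higher and none lower at an unadjusted p under 0.05, with a median of 0.60. Top2a, a marker of dividing cells, measured 152, 106 and 183 CPM in proestrus and 78.8, 111 and 92.3 CPM in diestrus, and the stages overlapped. The summed level of the mitosis list was 1225 to 2130.0 CPM in proestrus, 1169.9 to 1192 CPM in diestrus and 521 to 628 CPM in estrus. In metestrus it ran from 432 to 2136 CPM, a range that spans those of the other stages. In estrus Mcm3 averaged 5.90 CPM, lower than in proestrus (adjusted p = 6.74e-05), and Top2a 26.0 CPM (adjusted p = 0.0116).

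Ribosomal proteins and other genes of protein synthesis gave no calls. Among 75 cytosolic ribosomal proteins edgeR, DESeq2 and limma-voom called none, none passed an unadjusted p under 0.05, and the median log2 difference was -0.02. Rpl41 measured 4457, 3835 and 3726 CPM in proestrus and 3822, 4677 and 3566 CPM in diestrus. Among 51 genes of ribosome biogenesis and 43 translation factors and tRNA synthetases edgeR, DESeq2 and limma-voom called none, with 2 lower and 2 higher at an unadjusted p under 0.05, respectively. Among 39 tested genes of folding in the endoplasmic reticulum edgeR over all 12 samples, DESeq2 and limma-voom called none. EdgeR called 5 higher on the 6 samples alone and 1 without Proestrus 1, Metestrus 5 or Metestrus 7. Over all 12 samples 10 were higher at an unadjusted p under 0.05 and 34 of the 39 had a positive difference (median log2 0.22). Calr, the chaperone calreticulin, measured 815, 1182 and 1050.0 CPM against 686, 574 and 822 CPM (adjusted p = 0.0955). Among 31 tested interferon response genes edgeR, DESeq2 and limma-voom called none (edgeR called 1 higher without Diestrus 3), and 1 was higher and 2 lower at an unadjusted p under 0.05. Cox6c, of respiratory complex IV, was the 1 gene called among 49 of oxidative phosphorylation, lower at 438, 447 and 427 CPM against 677, 749 and 815 CPM (log2 -0.77, SE 0.14); its exons overlap Vps13b on the opposite strand.

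Cell type markers set these results beside the composition of the tissue. Smooth muscle markers summed to 13484 to 17929 CPM in proestrus and 14079 to 14413 CPM in diestrus, and endothelial markers to 1867 to 1986 and 1848 to 2038 CPM, both with overlapping stages. Most of the endothelial sum was Pecam1, at 1333, 1481 and 1458 CPM in proestrus and 1300, 1075 and 1228 CPM in diestrus. Among 27 tested endothelial genes, 21 had a negative and 6 a positive difference (median log2 -0.47), and 1 was called, lower. Neutrophil markers summed to 22.6 to 52.8 CPM in proestrus and 20.3 to 76.4 CPM in diestrus, with Trem1 and Stfa2l1 at 0 in all 6. Of 6 tested neutrophil markers, 4 had a negative and 2 a positive difference (median log2 -1.03). At an unadjusted p under 0.05 (edgeR) 2 were lower and 0 higher. EdgeR and limma-voom called none, and DESeq2 called 1 lower. T cell and natural killer markers summed to 40.5 to 57.7 and 50.9 to 85.0 CPM. Ovary markers summed to 54.8 to 77.1 CPM in proestrus and 44.0 to 47.5 CPM in diestrus, higher in proestrus without overlap, with Zp2, Zp3, Fshr and Amh at 0. Most of that sum was Foxl2, at 49.6, 55.0 and 30.4 CPM against 32.4, 23.7 and 32.8 CPM, with overlapping stages. Star was higher without overlap, at 13.7, 16.7 and 17.8 CPM against 9.47, 11.9 and 12.5 CPM. Of 2 tested ovary markers edgeR, DESeq2 and limma-voom called none. Red blood cell markers reached 1082 CPM in Proestrus 3, the highest of the 6 uteri, and no red cell gene was called by edgeR, DESeq2 or limma-voom or had an unadjusted p under 0.05. Skeletal muscle markers summed to 68.5 to 106 CPM in proestrus and 144 to 225 CPM in diestrus, lower in proestrus without overlap. Acta1, skeletal muscle actin, was the 1 called lower among 4 tested, and its call was lost with counts scaled from TPM and without Estrus 3, Estrus 5 or any 1 of the 6 libraries compared (adjusted p up to 0.165). Mesothelial markers summed to 283 to 378 CPM in proestrus and 132 to 238 CPM in diestrus, higher in proestrus without overlap. Most of the proestrus sum was Krt19, also a keratin of the uterine epithelium, at 225, 293 and 181 CPM against 80.3, 38.6 and 95.6 CPM. Krt19 was the 1 called higher among 7 tested, of which 4 had a positive and 3 a negative difference (median log2 0.09). Wt1 of that list was lower, at 35.9, 37.2 and 44.7 CPM against 56.3, 54.9 and 63.4 CPM. The sums of the adipocyte, nerve, B cell and ciliated oviduct lists overlapped between the stages. The part of these cell types in the differences was not tested.

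**Figure D5:**
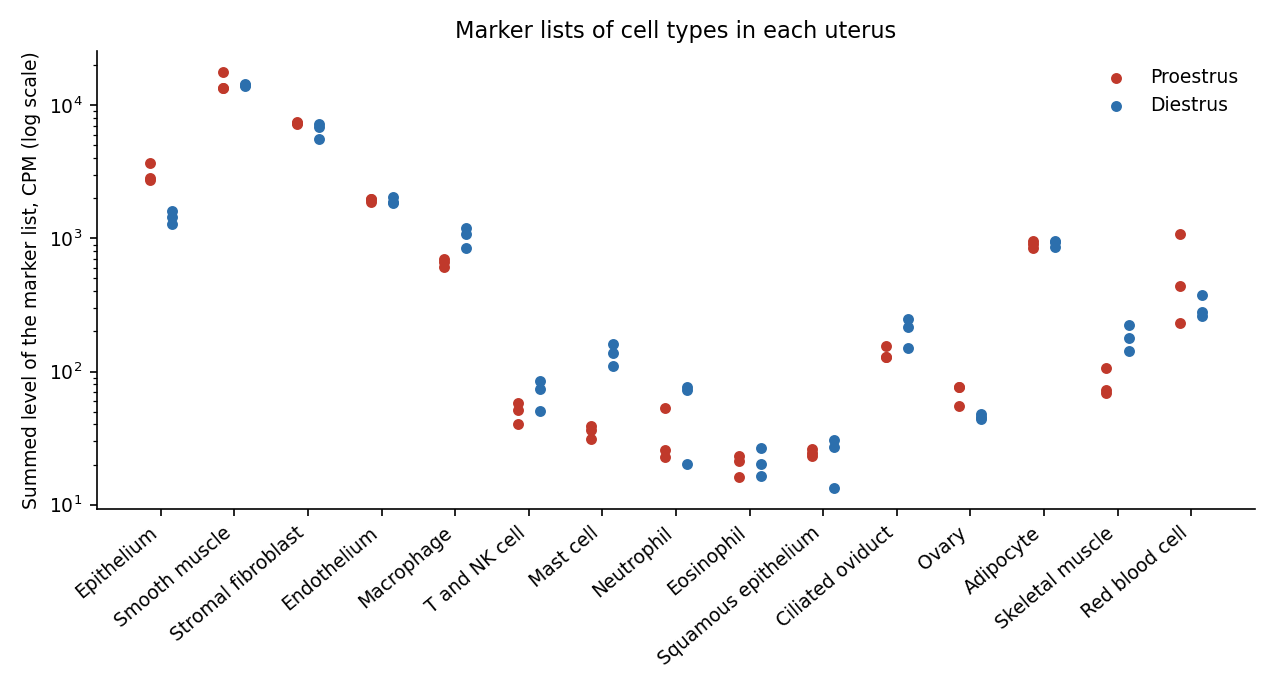
Summed level of each cell type's marker list in each uterus, in CPM on a log scale; red points are the 3 proestrus and blue points the 3 diestrus uteri. Epithelial sums are higher in all proestrus uteri and macrophage and mast cell sums lower, while smooth muscle and endothelial sums overlap and the eosinophil, ovary and squamous lists stay under 100 CPM.

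Levels in the neighbouring stages placed these genes in the cycle. Padi1 averaged 157 CPM in estrus against 136 CPM in proestrus (adjusted p = 0.621), and Elf3 311 against 254 CPM (adjusted p = 0.619). Muc4 and Trpv6 were higher again in estrus, at 183 and 239 CPM (adjusted p = 0.00181 and 0.000646). Inhbb, Nppc and Oxtr were instead highest in proestrus, and each was lower in estrus (adjusted p = 0.0439, 0.000547 and 0.0135). Among the genes lower in proestrus, Ihh averaged 6.48 CPM in metestrus and 17.5 CPM in diestrus (adjusted p = 0.175) and Hdc 23.7 and 75.8 CPM (adjusted p = 0.0877). Tmem132c, Mme and Wfdc1 differed between those stages, with metestrus means of 28.4, 49.1 and 56.8 CPM against 109.7, 135 and 166 CPM in diestrus (adjusted p = 0.0111, 0.0162 and 0.0111). These comparisons use the same proestrus and diestrus libraries as those above and are given for the order of the levels.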

How the data were processed

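Whole uteri of 4 estrous cycle stages, 3 each, were profiled by 3' TagSeq from 100 ng of RNA, per the labels' protocols. The authors deposited, per the file headers, estimated counts and TPM values per transcript for each sample, with the transcript's length and effective length. FastQC, kallisto and DESeq2 are named in the submitters' processing notes, without their roles; the transcript set, options, build and use of strand are not given in the sources used here.

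Transcripts were matched without version to GENCODE M21 (GRCm38), and the deposited estimated counts were summed per gene (35896 genes) and rounded to whole numbers; unmatched transcripts, 0.619% to 0.774% of the counts, were left out. Coordinates are 1-based GRCm38. Low genes were removed with filterByExpr by stage. All 12 samples entered 1 edgeR quasi-likelihood fit (edgeR 4.0.16, R 4.3.3, trimmed mean of M-values), with 1 coefficient per stage, and proestrus minus diestrus was tested two-sided with Benjamini-Hochberg adjustment over 12052 genes. The test was also run on simulated data with known changes, and the outcome is not reported here. Alternatives were 3 other scalings, DESeq2 1.42.0, limma-voom (limma 3.58.1), the 6 samples alone, other filters, counts scaled from the authors' deposited TPM values, and each library left out in turn.

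Named genes were the 12 with the largest log2 difference in each direction among called protein-coding genes of at least 20 CPM in the higher stage whose stages did not overlap (predicted genes left out), the 6 with the smallest p in each direction, up to 4 called members per list and direction (up to 2 of the highest level where none was called), and the steroid receptors. The gene lists and markers were chosen with earlier results of these data known. Shared sequence is the percent of 31-base words of a gene's transcripts that also occur in another gene, and promoter windows are from RefSeq. The labels' replicate numbers were used as names. Some genes are not reported here.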

Additional observations from a re-analysis of the deposited data

How the results depend on the processing

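Of 204 named genes, 175 were called, and 102 of these kept their call under every one of the 21 alternatives in which they were tested. The other 73 lost it under at least 1, 64 of them when a single library was left out, and none of the 175 called genes changed direction. The number of called genes stayed within 1.5 times 1028 under 3 other scalings, DESeq2, limma-voom, the 6 samples alone (1463 calls) and no filter on low counts (1285 calls). With genes of a mean of at least 50 counts, 670 were called, 348 of them higher, among fewer genes tested. With counts scaled from TPM, 539 were called, 309 higher and 230 lower; 511 of these were among the 1028, and the cause was not tested. Of all calls 54.2% were higher in proestrus; scaled to library totals, without correction for composition, the share was 47.9%, so that lower genes became the majority. Leaving out 1 library gave 519 to 1281 calls, 305 to 670 higher and 214 to 611 lower. The total fell by more than 1.5 times without Proestrus 2 (519), Diestrus 4 (613), Proestrus 3 (636) or Diestrus 5 (681), as did the lower count without Proestrus 1 (296); fewer samples were then compared, and the remaining pair was assumed to vary like the other stages. No paired analysis was possible because proestrus and diestrus share only replicate number 3. The library totals limit what can be seen for genes at a few CPM, whose folds are bounds.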

Other observations

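The genes and families given here were chosen after their values were seen, so their counts describe them and test nothing. Of 44 tested enzymes that build O-linked and fucosylated glycans, the sugar chains of mucins, 8 were called higher and 1 lower in proestrus (edgeR, adjusted p under 0.05; median log2 difference 0.12). Galnt12, 1 of the transferases that attach the first sugar, measured 17.1, 14.0 and 14.7 CPM in proestrus and 3.49, 2.47 and 3.40 CPM in diestrus, and its relatives Galnt3 and Galnt7 were also higher (log2 2.69 and 1.15). Galnt3 lost its call with counts scaled from TPM (adjusted p = 0.0741). Gmds, which starts the synthesis of the fucose donor, measured 33.1, 54.4 and 47.2 CPM against 11.5, 11.4 and 10.8 CPM, and the fucosyltransferases Fut2 and Fut9 measured 33.1, 39.9 and 37.6 against 12.5, 17.8 and 9.06 CPM and 85.0, 136 and 86.8 against 42.9, 12.4 and 19.8 CPM. The remaining 2 called higher were B3gnt3 and St6galnac2, which lengthen and cap the chains (log2 2.65 and 1.17); St6galnac2 is listed under 2 gene identifiers that share sequence, which leaves its level uncertain. Gcnt1, which branches the chain, was the 1 called lower, at 8.56, 10.8 and 4.06 CPM against 26.4, 44.0 and 32.3 CPM. None of these genes overlapped between the stages.

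Of 30 tested genes of the primary cilium and its transport, 8 were called lower in proestrus (median log2 difference -0.35). The primary cilium is the structure on which hedgehog signals are read. Evc and Evc2, a pair of proteins at its base, measured 10.3, 4.85 and 6.09 against 27.9, 24.2 and 17.5 CPM and 9.13, 4.31 and 4.57 against 17.9, 21.8 and 22.1 CPM. Dync2h1, the motor of return transport, measured 13.1, 9.70 and 14.7 CPM against 23.9, 31.1 and 32.3 CPM. The others called lower were Rab34, Gpr161, Ift57, Ift74 and Wdr60 (log2 -0.98, -1.50, -0.84, -0.64 and -1.12). Evc, Gpr161, Ift57, Ift74 and Wdr60 lost their calls when 1 library was left out: Ift57 without Proestrus 2, Ift74 without Proestrus 3, Evc without Diestrus 3, Proestrus 2 or Proestrus 3, Wdr60 without Diestrus 4, Proestrus 1 or Proestrus 2, and Gpr161 without Diestrus 4, Diestrus 5, Proestrus 2 or Proestrus 3. Subunits of the interleukin 17 receptor differed in direction. Il17ra measured 59.9, 50.1 and 51.8 CPM in proestrus and 20.9, 21.3 and 11.3 CPM in diestrus and Il17re 42.2, 45.3 and 27.4 against 16.45, 12.9 and 20.4 CPM, whereas Il17rb was lower at 9.70, 7.55 and 6.60 against 15.5, 38.6 and 15.3 CPM, and lost its call in several settings, among them without any 1 proestrus library.

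Ramp1 and Ramp3, which pair with the calcitonin receptor-like receptor and set which peptide it binds, moved in opposite directions. Ramp1 measured 33.7, 16.2 and 22.8 CPM in proestrus and 58.8, 131 and 127 CPM in diestrus, and Ramp3 192, 169 and 182 against 66.8, 20.3 and 37.9 CPM, with exons that overlap the predicted gene Gm11978 on the opposite strand. Ramp3 lost its call with counts scaled from TPM and without Diestrus 4, Diestrus 5 or any 1 proestrus library (adjusted p up to 0.109). Slc40a1, the iron exporter ferroportin, measured 153, 218 and 160.4 CPM against 25.9, 13.3 and 15.3 CPM, and Apoe, a carrier of lipids, 545, 481 and 544 against 1604, 1242 and 1721 CPM. Pcsk5, a convertase that cleaves secreted precursors, measured 19.4, 9.16 and 19.3 CPM against 119, 161 and 141 CPM. Ctla2a, an inhibitor of cathepsin proteases, had high counts in diestrus, at 1433, 3978 and 2906 CPM against 199, 257 and 221 CPM in proestrus, but 36.9% of its 31-base words also occur in the predicted gene Gm49391, so its level is uncertain; its call was lost without Diestrus 4 or any 1 proestrus library (adjusted p up to 0.0721).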
